A study of Mus musculus with 4 samples.

Results

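The immediate early response genes *Jun*, *Gem*, *Rgs2*, *Dusp5*, *Tiparp* and *Ier5l* were paired with 9 of the 20943 differential H3K9ac peaks from mouse aorta macrophages. The pairing of peaks with genes was taken from the study's supplementary table, and each peak was found by its name in the deposited list. In mice exposed to chronic intermittent hypoxia (CIH), 4 of the 9 were higher, beside 45.4% of the whole list. The other 5 were higher in the room air controls (RA), beside 54.6% of the list. These peaks were selected on their difference between the same libraries and on a high number of reads, so their directions are given as a description and nothing was tested. By this pairing, in the part of the table held here, *Jun* and *Gem* had peaks in both directions and *Tiparp* had a peak higher in CIH only. *Rgs2*, *Dusp5* and *Ier5l* each had a peak higher in RA only. Those of *Rgs2* and *Dusp5* touched peaks higher in CIH that were not in the held part. The sequences placed the *Dusp5* and *Ier5l* peaks at the starts of other genes paired with them, *Smc3* and *Ptpa*.

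Histone H3 acetylated at lysine 9 (H3K9ac) marks active promoters and enhancers, and H3K27me3, the trimethylation of lysine 27, marks chromatin silenced by Polycomb complexes. Immediate early genes are switched on within minutes of a signal, without new protein synthesis, and many encode transcription factors or brakes on the signal that induced them. In macrophages they respond to growth factors, bacterial products and stress.

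The data were 4 ChIP-Seq libraries from C57BL/6J mice, 1 for each mark in each exposure, with no replicate and no input library. The paper states that few cells were available per mouse and that the data were therefore limited and hard to analyse. CIH mice were kept for 20 weeks in chambers that switched every 90 seconds between 6.1% and 21% oxygen for 12 hours a day, while RA mice had cycles at 21% oxygen throughout. Cells were taken from digested aortas by magnetic beads against CD11b, a surface protein that monocytes, macrophages and neutrophils share. The authors deposited a list of differential peaks per mark, with 20943 peaks for H3K9ac and 146 for H3K27me3, and the depth of the libraries and the reads per peak are not used here. A peak therefore has a position, a width and a direction, and no error can be given for any of them. Peak edges fall on multiples of 50 bp of the mm9 assembly of the mouse genome. The list's sign was read from the 483 peaks of the supplementary table held here, all 483 of which had the same name, position and direction there. That table was held only in part, ordered by peak name, so further peaks of these genes can stand in the rest. Lists of differences hold no levels, so the labelled cell type could not be checked against its markers. Of 10 macrophage genes looked for in the held part, 1 had a peak, *Mertk*, which encodes a receptor for the uptake of dying cells, and the peak of 750 bp was higher in RA. None of the 5 genes each for smooth muscle, endothelium, fibroblasts, T cells and neutrophils had a peak there. The share of all genes with a peak in the held part was not counted, so these counts do not describe the cell type.

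The sequences under the peaks varied in their density of CG dinucleotides. The held text gives the first 399 bases of a longer peak, on the plus strand of mm9. The first 150 bases are shown for the *Jun* peak higher in RA (chr4:94717451-94717600), the outer *Jun* peak higher in CIH (chr4:94719451-94719600), the *Gem* peak higher in CIH (chr4:11602301-11602450) and the *Tiparp* peak higher in CIH (chr3:65331151-65331300). Capitals mark CG dinucleotides, the substrate of DNA methylation, of which the stretches hold 14, 9, 1 and 1. The *Gem* and *Tiparp* peaks shown had the lowest ratios of observed to expected CpG of the 9, 0.12 and 0.30 over their first 399 bases. The other peaks ranged from 0.32 to 0.93.
Jun RA: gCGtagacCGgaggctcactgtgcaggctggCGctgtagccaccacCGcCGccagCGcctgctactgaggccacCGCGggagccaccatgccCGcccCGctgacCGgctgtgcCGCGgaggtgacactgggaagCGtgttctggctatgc
Jun CIH: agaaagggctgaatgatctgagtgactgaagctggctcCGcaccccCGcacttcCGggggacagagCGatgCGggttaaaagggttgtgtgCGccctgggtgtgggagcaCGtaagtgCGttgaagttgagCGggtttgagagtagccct
Gem CIH: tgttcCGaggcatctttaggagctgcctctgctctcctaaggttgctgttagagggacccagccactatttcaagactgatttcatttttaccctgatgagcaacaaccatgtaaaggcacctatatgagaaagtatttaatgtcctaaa
Tiparp CIH: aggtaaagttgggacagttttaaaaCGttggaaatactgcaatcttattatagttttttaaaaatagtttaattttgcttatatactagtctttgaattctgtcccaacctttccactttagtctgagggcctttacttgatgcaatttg

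*Jun* encodes c-Jun, a subunit of the AP-1 transcription factor, and its 3 peaks were also paired with *Junos*, a long noncoding RNA gene beside it. They lay within 3300 bp of chromosome 4, and in this span the direction changed once. On the lower-coordinate side stood the peak higher in RA, 800 bp wide (chr4:94717451-94718250). It was followed without a gap by a peak higher in CIH, 1050 bp wide (chr4:94718251-94719300). After 150 bp came the other peak higher in CIH, 1300 bp wide (chr4:94719451-94720750). Differences toward CIH thus covered 2350 bp and the difference toward RA 800 bp of the locus, and the RA stretch was at its edge, not between the CIH peaks. Peak names are numbered along each chromosome, and 1 number is missing from the list between the CIH peaks, so a numbered region there is not in the differential list.

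Within the *Jun* locus GC content was highest in the RA peak and lowest in the peak farthest from it. It was 67.7% in the first 399 bases of the RA peak, 63.7% in the touching CIH peak and 56.1% in the outer CIH peak. The ratio of observed to expected CpG was 0.84, 0.92 and 0.76 in the same order, all above the median of 0.54 over 475 peaks of the held part. In the RA peak's first 399 bases, 1 of 3 reading frames had no stop codon on the minus strand, the strand of *Jun* in RefSeq. On the plus strand it was 0 of 3. Frames were not counted in other peaks, so whether the RA peak covers coding sequence was not tested. No stretch of 60 bases of the RefSeq *Jun* promoter was found in the held bases of the 3 peaks, so the gene's start was not placed against them. Farther out, on the higher-coordinate side, lay a second touching pair, with a 700 bp peak higher in CIH (chr4:94748001-94748700) and a 450 bp peak higher in RA (chr4:94748701-94749150). These were 27250 and 27950 bp from the outer CIH peak, and there the CIH peak came first.

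*Gem* encodes a small GTPase of the RGK family that restrains calcium channels and cytoskeletal tension, and its locus was arranged differently. The peak higher in CIH was 1600 bp wide (chr4:11602301-11603900) and the peak higher in RA 650 bp wide (chr4:11631851-11632500), with 27950 bp between them. The RA peak was touched on each side by a peak higher in CIH that had not been paired with *Gem* in the held part, 300 bp wide on the lower side (chr4:11631551-11631850) and 500 bp wide on the higher side (chr4:11632501-11633000). The RA difference was thus the middle of a run of 1450 bp in which CIH took 800 bp and RA 650 bp. In the list, 353 of 16786 groups of touching or lone peaks had this order of CIH, RA and CIH (2.1%), and 463 of 11441 peaks higher in RA were touched on both sides (4.05%). Between the distant CIH peak and the run, 27650 bp held no differential peak, and 27 name numbers fell in that gap.

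The *Gem* peaks also differed in the base composition of their first 399 bases, which are a smaller part of the wider CIH peak. GC content was 41.6% in the distant CIH peak and 48.9% in the RA peak, and the CpG ratio was 0.12 against 0.63, the lowest of the 9 peaks against a value near the members' median of 0.64. The RA peak held the core of the cAMP response element, CGTCA, starting at base 390 of the peak. It is shown in capitals within 30 bases (chr4:11632220-11632249).
Gem RA: gtctctgatcttctaatttaCGTCAgaaag

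**Figure D1:**
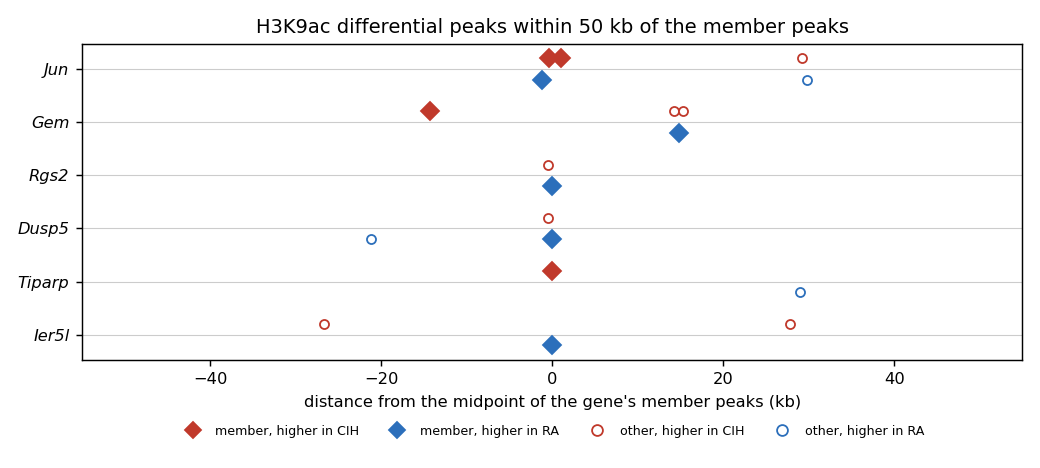
Differential H3K9ac peaks within 50 kb of the peaks paired with the 6 genes, placed by the distance in kb of each peak's centre from the midpoint of the gene's paired peaks. Diamonds are the 9 paired peaks and circles the 10 others, red for higher in CIH and blue for higher in RA. The *Jun* diamonds sit together, the *Gem* diamonds lie 27950 bp apart edge to edge, and 4 of the circles are beside a blue diamond.

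*Rgs2* encodes a GTPase-activating protein that shortens signalling through Gq-coupled receptors. Its peak was higher in RA and the narrowest of the 9, at 450 bp (chr1:145624901-145625350), and 32.9% of all peaks higher in RA were as wide or wider. It was touched on the lower side by a 650 bp peak higher in CIH (chr1:145624251-145624900), so the pair spanned 1100 bp with the larger share in CIH. No other differential peak lay within 50 kb. The peak was also paired with *Uchl5*, which encodes a deubiquitinase of the proteasome. In the first 399 bases of the peak, GC content was 54.1% and the CpG ratio 0.64. No stretch of 60 bases of a RefSeq promoter, that of *Rgs2* included, was found in these bases, so the peak was not placed at a gene's start.

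*Dusp5* encodes a nuclear phosphatase that switches off the kinase ERK, whose activity induces it. The peak was higher in RA, 550 bp wide (chr19:53674601-53675150), and it was paired with *Smc3* as well, which encodes a subunit of the cohesin ring. The sequence placed it at *Smc3*. From base 36 on, 215 bases matched the RefSeq promoter of *Smc3* without a break from that promoter's first base, and 262 of 262 known bases that the peak and the promoter share were equal. The *Smc3* start fell at base 286 of the peak, with 285 bp before it and 265 bp from it on. In RefSeq, *Smc3* and *Dusp5* lie on the same strand with *Dusp5* on the lower side, and no stretch of the *Dusp5* promoter was found in the held bases. The first 250 bases of the peak are shown (chr19:53674601-53674850), with the match in capitals.
Dusp5 RA: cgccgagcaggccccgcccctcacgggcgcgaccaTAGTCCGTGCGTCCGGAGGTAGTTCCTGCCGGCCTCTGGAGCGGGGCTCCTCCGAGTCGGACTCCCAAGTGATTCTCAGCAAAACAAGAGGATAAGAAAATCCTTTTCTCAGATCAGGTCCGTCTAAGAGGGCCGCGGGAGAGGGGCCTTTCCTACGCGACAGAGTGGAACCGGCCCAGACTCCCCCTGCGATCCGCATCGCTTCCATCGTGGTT

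A 400 bp peak higher in CIH touched this peak on the lower side (chr19:53674201-53674600). The direction therefore changed upstream of the *Smc3* start, 285 bp before it, and the start itself lay in the stretch higher in RA. The pair spanned 950 bp, of which RA took the larger share, and the order of CIH then RA was that of 1805 of the 16786 groups (10.8%). The opposite order, that of *Jun*, made up 981 groups (5.84%). A further peak higher in RA, 250 bp wide, lay 20850 bp away on the lower side (chr19:53653501-53653750).

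**Figure D2:**
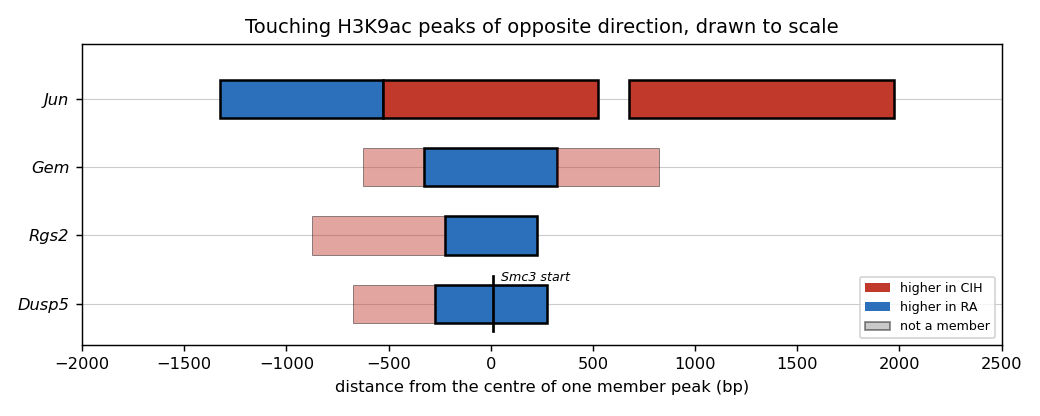
Touching peaks of opposite direction at 4 genes, drawn to scale in bp from the centre of a paired peak; red is higher in CIH, blue higher in RA, outlined bars are paired peaks and pale bars touching peaks not paired with the gene. The blue stretch is at the edge of the *Jun* locus, between red stretches at *Gem*, and beside red on the lower side at *Rgs2* and *Dusp5*, where the line marks the *Smc3* start 285 bp into the blue peak.

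*Ier5l* encodes a protein of the immediate early response 5 family. Its peak was higher in RA, 700 bp wide (chr2:30297351-30298050), and was paired with *Ppp2r4* too, the gene RefSeq now names *Ptpa*, whose product activates protein phosphatase 2A. Its first 72 bases matched the end of a RefSeq promoter of *Ptpa*, whose start fell at base 23, so 22 bp lay before the start and 678 bp from it on. It was the only peak higher in RA of the 9 that touched no other. The nearest differential peaks were higher in CIH, at 26250 bp on the lower side (250 bp wide) and 27200 bp on the higher side (450 bp wide). The peak held the only AP-1 site, TGANTCA, among the held bases of the 9 peaks, starting at base 180. Shown are the bases around the *Ptpa* start, in capitals from the start on (chr2:30297351-30297402), and the AP-1 site in capitals (chr2:30297518-30297547).
Ier5l start: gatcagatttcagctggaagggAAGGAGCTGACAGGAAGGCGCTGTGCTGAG
Ier5l AP-1: atatggctgctcTGACTCAcacgattcccc

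*Tiparp* encodes a mono-ADP-ribosyltransferase that is induced by the aryl hydrocarbon receptor and acts back on it. Its peak was higher in CIH and, at 2700 bp (chr3:65331151-65333850), the widest of the 9. In the whole list, 39 of the 9502 peaks higher in CIH were as wide or wider (0.41%), the widest being 4150 bp. Peaks higher in CIH were wider in the held part, which was selected on many reads, with a median of 1400 bp against 600 bp. Among those peaks such a width is therefore less rare than the share over the list. The *Tiparp* peak was paired with the noncoding *4931440P22Rik* too. It touched no other peak, and the nearest was a 250 bp peak higher in RA, 27550 bp away on the higher side (chr3:65361401-65361650). With 31.6% its first 399 bases had the lowest GC content of the 9, below the lower quartile of the held part (45.8%), and their CpG ratio was 0.30. In a peak this wide these bases are a small part at 1 end, so the ranking does not cover the whole peak. No stretch of 60 bases of the *Tiparp* promoter stood in its first 399 bases, and the rest of the peak was not searched.

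Across the 6 loci, 10 other differential H3K9ac peaks lay within 50 kb, of which 7 were higher in CIH and 3 higher in RA. They were 250 to 700 bp wide, and 0 of the 10 were in the held part of the table. Of these, 4 touched a paired peak, in each case one higher in RA. Touching peaks of the list were always of opposite direction, with 0 of 4157 contacts between peaks of the same direction, so those 4 could only be higher in CIH, and the count of 7 against 3 includes them. The other 6 were split evenly, with 3 in each direction, and lay 20850 to 27950 bp away. Each paired peak had 1 to 4 differential peaks within 50 kb (median 3), where the median over the whole list was 2. The *Jun* peaks had 4 each and the *Gem* peaks 3 each, counting one another and the same neighbours. The peaks of *Dusp5* and *Ier5l* had 2 each and those of *Rgs2* and *Tiparp* 1 each. The median of 3 thus rests on the *Jun* and *Gem* loci and does not describe the 6 genes.

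Counting paired peaks as neighbours too, 4 of the 5 peaks higher in RA touched a peak higher in CIH, all except that of *Ier5l*. Over the list this held for 32.3% of peaks higher in RA, and for 48.6% of those in the held part, which like the members were selected on many reads. Of the 4 peaks higher in CIH, 1 touched a peak higher in RA, the middle one of *Jun*, beside 40.8% over the list and 30.9% in the held part. With 5 and 4 peaks, these shares describe the loci and no more. Of the 4157 contacts between neighbouring peaks in the list, longer runs included, the CIH peak was the wider in 2832 (68.1%). Among the 5 touching pairs around the paired peaks it was the wider at *Jun* and *Rgs2*, and the narrower at *Dusp5* and on both sides at *Gem*.

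Differential H3K27me3 peaks were rarely near any H3K9ac peak, and none was near the paired peaks. None of the 146 differential H3K27me3 peaks lay within 50 kb of a paired peak, and over all H3K9ac peaks 159 had one that close (0.759%). The nearest was 4596 kb from the *Rgs2* peak, 13409 to 13412 kb from the *Jun* peaks, 13898 kb from the *Tiparp* peak, 22186 and 22215 kb from the *Gem* peaks and 23713 kb from the *Ier5l* peak, and chromosome 19, which carries *Dusp5*, had none. A region with the mark in both exposures alike would not appear in the list.

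In width, the paired peaks of each direction did not overlap. Those higher in CIH were 1050 to 2700 bp wide (median 1450 bp) and those higher in RA 450 to 800 bp wide (median 650 bp). The same order held in the medians of the list, 600 bp and 300 bp, and of the held part, 1400 bp and 850 bp. The order of the medians was thus shared by peaks of other genes, but the separation was not. The held part had a peak higher in CIH of 450 bp and a peak higher in RA of 2700 bp. In the GC content of the first 399 bases the directions overlapped. The RA peaks ran from 48.9% to 67.7% and the CIH peaks from 31.6% to 63.7%. The median over the 9 peaks was 54.1%, and in the held part it was 52.6% for 235 peaks higher in CIH and 53.9% for 240 higher in RA.

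**Figure D3:**
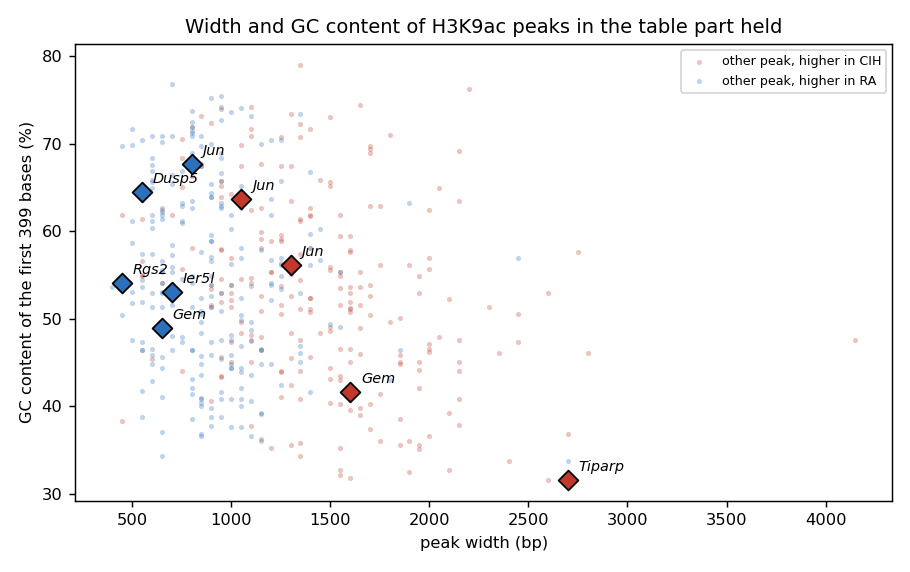
Width in bp against GC content (%) of the first 399 bases for the 475 peaks of the held part of the table with that many bases; red is higher in CIH, blue higher in RA, and diamonds are the 9 paired peaks. The red diamonds lie at 1050 bp or more and the blue at 800 bp or less, and *Tiparp* is the widest and the lowest in GC.

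Short motifs of factors known to act on immediate early genes were searched on both strands in the first 399 bases of each peak. The GC box of SP and KLF factors, GGGCGG, stood in 4 of the 9 peaks, those of *Rgs2* and *Dusp5* and the touching *Jun* peaks, and in 35.2% of the held part. The xenobiotic response core, GCGTG, bound by the aryl hydrocarbon receptor, stood in 3 peaks (39.8%), and the hypoxia response core, ACGTG, in 2, the RA and the outer CIH peak of *Jun* (28%). The core CGTCA stood in 2 peaks, the middle *Jun* peak and the *Gem* RA peak (26.3%). The TATA box, TATAAA, stood in 1, the outer *Jun* peak (12.4%), and the AP-1 site in that of *Ier5l* (9.89%). Neither the whole cAMP response element, TGACGTCA (1.68%), nor a CArG box, the site of serum response factor (2.32%), stood in any. CGTCA is contained in TGACGTCA, and ACGTG and GCGTG share their last letters. A match is a run of letters, and binding was not measured.

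The promoters of the genes themselves, 250 bases before to 50 after the start in RefSeq on GRCm38.p6, were given for 5 of the 6 genes, all except *Gem*. The GC box stood in the promoters of *Jun*, *Rgs2*, *Dusp5* and *Ier5l*, as in 35.7% of 32851 promoters, and GCGTG in those of *Rgs2*, *Dusp5*, *Tiparp* and *Ier5l* (32.4%). *Rgs2* and *Dusp5* held CGTCA (20.8%), *Dusp5* held ACGTG (19.6%), and none held TGANTCA (7.81%), TGACGTCA (1.79%) or TATAAA (13.6%). Only exact letters were counted, so TGACATCA in the *Jun* promoter, a close variant of TGACGTCA, was not. *Dusp5* was the only one with a CArG box, which 1.63% of promoters held, and it had 2 side by side, with first bases 82 and 72 before the start. Bases 101 to 250 of these promoters are shown for *Jun*, as an example with a GC box, and for *Dusp5*, each in the direction of its gene. Capitals mark the GC box, read on the other strand, in *Jun* and the CArG boxes in *Dusp5*.
Jun promoter: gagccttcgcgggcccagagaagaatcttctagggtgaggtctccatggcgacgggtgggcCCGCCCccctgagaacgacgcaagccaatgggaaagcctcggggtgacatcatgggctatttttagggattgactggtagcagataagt
Dusp5 promoter: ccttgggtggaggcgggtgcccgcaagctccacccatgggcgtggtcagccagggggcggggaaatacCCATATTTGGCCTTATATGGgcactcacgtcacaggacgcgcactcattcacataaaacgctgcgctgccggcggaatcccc

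The 6 genes were compared with a list of 60 immediate early genes, 10 of which had a peak in the held part. These 10 include the 6, which were chosen because they had peaks. The share of all genes with a peak there was not counted, so 10 of 60 cannot be called many or few. By direction these were 4 genes with peaks higher in CIH only (*Btg2*, *Nr4a3*, *Klf4* and *Tiparp*), 4 with peaks higher in RA only (*Nr4a2*, *Rgs2*, *Dusp5* and *Ier5l*) and 2 with both (*Jun* and *Gem*). The tally follows the study's pairing, although the *Dusp5* and *Ier5l* peaks lay at the *Smc3* and *Ptpa* starts. The *Rgs2* and *Tiparp* peaks were also paired with another gene each, *Uchl5* and *4931440P22Rik*. Neither was placed at a gene's start, so which gene they belong to is not known. The 4 genes outside the 6 had 8 peaks, 7 of them higher in CIH, beside 48.9% of all peaks in the held part. None of the 8 touched a peak of the other direction (0 of 8), whereas in the held part 30.9% of the CIH peaks and 48.6% of the RA peaks did. With 8 peaks from 4 genes, these counts are a description. *Btg2*, which encodes an antiproliferative factor, had peaks of 1150, 1500 and 1000 bp, and *Klf4*, a Krüppel-like transcription factor, peaks of 1400 and 1000 bp. The orphan nuclear receptor gene *Nr4a3* had peaks of 1300 and 750 bp, and the related *Nr4a2* was alone among these 4 with a peak higher in RA, of 550 bp. As the table was held in part, a gene of the list without a peak here may have one in the rest. Likewise, a gene with peaks in 1 direction here may have a peak of the other direction there.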

How the data were processed

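H3K9ac and H3K27me3 were profiled by ChIP-Seq in aorta macrophages of CIH and RA mice, with 1 library per mark and exposure. The submitters' notes name MACS2 2.1.0, BWA 0.7.12 and Trimmomatic 0.32, then bedtools 2.23.0, Picard 1.121 and SAMtools 1.2, and the assembly mm9, without giving each a role. By the study's account, blacklisted and low complexity stretches had been filtered out, and more than 1 peak tool contributed. The authors deposited a list of differential peaks per mark with a score, which is 1000 in every row, so no stricter threshold on it could be set. Depth could not be taken from these lists. No columns of per-sample values were left unused (0).

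Members were the peaks that the supplementary table pairs with the 6 genes, matched by name. Of that table names, positions, directions, gene pairs and sequences were used, the directions to read the sign of the deposited list, and the reads and p-values per peak are not used here. The table's sequences stop at 399 bases. The members, the gene lists and the motifs were chosen with earlier results of these data known. The genes named are the 6, those paired with their peaks, and those of the immediate early and marker lists with a peak in the held part.

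Gaps were counted between nearest edges, and a gap of 0 bp was called touching. Peaks within 50 kb were counted by direction. GC content and the CpG ratio left out unknown bases. Starts were placed by an exact match of at least 60 bases between the peak and RefSeq promoters (GRCm38.p6), and no coordinates were converted. RefSeq matched 11 of 11 paired genes. Exon, intron and UTR positions are not given, as no mm9 annotation was used here. No test was run, since each group is 1 library. The counting was tested on simulated data with planted peaks. Python 3.11.15 and matplotlib 3.10.9 were used. Alternatives were windows of 10 and 100 kb (1 Mb for H3K27me3), distances between centres, peaks of at least 300 bp, a gap of 150 bp, the first 250 bases, and a match of 40 bases.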

Additional observations from a re-analysis of the deposited data

How the results depend on the processing

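The number of other H3K9ac peaks near the 9 depended on the window. With 10 kb in place of 50 kb, 4 higher in CIH and 0 higher in RA were counted in place of 7 and 3, and with 100 kb 11 and 6. Among peaks of at least 300 bp, 6 were higher in CIH and 1 was higher in RA. Distances between centres left 7 and 3. No H3K27me3 peak lay within 100 kb or 1 Mb. A gap of 150 bp counted as touching left 5 members touching the other direction. The first 250 bases gave a median GC of 55.6% and 1 peak with CGTCA and 0 with TATAAA, and a match of 40 bases left 2 placed starts. No paired analysis was possible because each mark and exposure has 1 library. Depth per peak was not used here, so a locus without a listed peak cannot be told from one with too few reads.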
